A study of Drosophila melanogaster with 46 samples.

Results

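The transition from lights-off to the early night was examined in the heads of Drosophila melanogaster on Day 27 of adult life. Of the 46 RNA-seq libraries of the series, 11 belonged to it, chosen by their labelled Zeitgeber time (ZT, hours after lights-on in a 12 h:12 h light-dark cycle, with lights-off at ZT12). The early night held 5 libraries, WT at ZT16 and the inc1 and wakeD2 sleep mutants at ZT16 and ZT40. Lights-off held 6 libraries, WT, inc1 and wakeD2 at ZT12 and ZT36. inc1 and wakeD2 flies carry mutations of insomniac and wide awake and had been backcrossed to WT, the Canton-S w1118 (iso1CJ) strain, so that all 3 groups share that background. Each library was a pool of heads of both sexes, and in such bulk RNA fewer cells of a type and less RNA per cell cannot be told apart. ZT16 and ZT40 are the same hour on consecutive days, as are ZT12 and ZT36, and nothing in the labels says that the libraries of a genotype came from separately reared cultures.

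In the fly clock, CLOCK (CLK) and CYCLE (CYC) activate period (per), timeless (tim), vrille (vri), Par-domain protein 1 (Pdp1) and clockwork orange (cwo). The PER and TIM proteins then accumulate in the dark and repress CLK and CYC, while VRI represses Clk and cryptochrome (cry). CRY is a blue-light photoreceptor that triggers loss of TIM. Head RNA also follows light and activity directly, since photoreceptors make up a large part of the tissue and many neurons turn on early response genes when they fire.

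The deposited table held 20037165 to 26099449 counted reads per library over these 11 libraries. Levels are given as CPM, the read count of a gene scaled to a fixed library size, after TMM scaling, a correction for library composition. inc was low in inc1 in every library, with 83.1 CPM in WT at ZT16, 10.4 and 11.4 CPM in inc1 and 80.6 and 85.8 CPM in wakeD2 at ZT16 and ZT40, against 72.5 and 73.3 CPM in WT, 9.53 and 11.1 CPM in inc1 and 67.9 and 72.3 CPM in wakeD2 at ZT12 and ZT36. wake was lower in wakeD2, with 70.6 CPM in WT at ZT16, 64.9 and 61.4 CPM in inc1 and 45.3 and 45.8 CPM in wakeD2 at ZT16 and ZT40, against 71.7 and 67.7 CPM in WT, 68.3 and 63 CPM in inc1 and 45.1 and 52.1 CPM in wakeD2 at ZT12 and ZT36. Head tissue was present throughout, with ninaE, the main rhodopsin of the eye, at 33562 to 46252 CPM and elav, a neuronal marker, at 135.8 to 161.3 CPM. RNA of body tissue was present in 4 of the 11 libraries, by a median accessory gland marker over 1 CPM, wakeD2 at ZT16 and ZT40 and wakeD2 at ZT12 and WT at ZT36. The 20 accessory gland markers summed to 0.389 to 597 CPM (median 0.742) in the early night and 0.515 to 2386 CPM (median 1.01) at lights-off, and the 22 midgut markers to 48.1 to 476 and 45.8 to 2523 CPM. The part of this RNA in single genes was not tested. Counts of list members called in the early night are therefore also given without these 4 libraries. That fit kept only the ZT36 library of wakeD2, so its comparison of phases rests on inc1 and on WT at ZT12 and ZT16.

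Transcripts changed in both directions between lights-off and 4 h later. In a light-dark cycle, darkness, clock time and sleep or activity cannot be told apart. Among 9969 genes tested with genotype as a covariate, 1153 rose (11.6%) and 1235 fell (12.4%) at an adjusted p under 0.05. Without the 4 libraries that held accessory gland RNA, 524 rose and 829 fell. The split also moved on the first sampling day alone, when 368 rose and 733 fell. Most changes were small. The median log2 fold change was 0.22 among genes that rose and -0.27 among genes that fell, and 17 rose and 27 fell by at least 1 on the log2 scale. Each early-night library could be set against the lights-off library of its genotype and day, giving 5 ratios per gene. All 5 pointed upward for 1080 of the genes that rose and downward for 1170 of those that fell. The ratios use the same libraries as the test that called these genes, so their shared sign is not separate evidence of a change. The CPM of the 5 early-night libraries lay wholly above those of the 6 lights-off libraries for 4.11% of all genes and wholly below for 4.73%.

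Among the 8 core clock genes, Clk rose, per and cry fell, and the other 5 did not pass the test. cry had 65.7 CPM in WT at ZT16, 58.8 and 55.3 CPM in inc1 and 53.9 and 54.3 CPM in wakeD2 at ZT16 and ZT40, against 119 and 108 CPM in WT, 116 and 113 CPM in inc1 and 106 and 97.8 CPM in wakeD2 at ZT12 and ZT36. The early-night libraries lay below all lights-off libraries, and the fall held in all 5 pairs (log2 fold change -0.92 ± 0.05 SE, adjusted p = 1.5e-05). Over the 34 Day 27 libraries, mean cry was 231, 257, 160.4, 110.1, 57.6 and 94 CPM at hours 0, 4, 8, 12, 16 and 20 of the cycle, so that the early night was its lowest point. Clk had 33.2 CPM in WT at ZT16, 27.4 and 25.7 CPM in inc1 and 33.8 and 32.9 CPM in wakeD2 at ZT16 and ZT40, against 19.9 and 21 CPM in WT, 20.5 and 21.7 CPM in inc1 and 23.2 and 20.01 CPM in wakeD2 at ZT12 and ZT36. The groups did not overlap, and Clk was higher in all 5 pairs (log2 fold change 0.54 ± 0.07 SE, adjusted p = 0.0011).

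per had 192 CPM in WT at ZT16, 165 and 185 CPM in inc1 and 187 and 196 CPM in wakeD2 at ZT16 and ZT40, against 299.8 and 263 CPM in WT, 185 and 207 CPM in inc1 and 271 and 272 CPM in wakeD2 at ZT12 and ZT36. The groups overlapped only because inc1 at ZT12 lay within the early-night range (log2 fold change -0.39 ± 0.08 SE, adjusted p = 0.0066). Without the 4 libraries that held accessory gland RNA the log2 fold change of per was -0.33 with an adjusted p of 0.051. tim, the partner of per, had 1322 CPM in WT at ZT16, 1059 and 1016 CPM in inc1 and 1155 and 1137 CPM in wakeD2 at ZT16 and ZT40, against 1349 and 1299 CPM in WT, 1087 and 1087 CPM in inc1 and 1255 and 1303 CPM in wakeD2 at ZT12 and ZT36, and the groups overlapped (log2 fold change -0.08, adjusted p = 0.11). vri averaged 344 ± 6.29 CPM in the early night and 373 ± 23.5 CPM at lights-off (SD, n = 5 and 6; log2 fold change -0.11, adjusted p = 0.096), and the adjusted p of vri fell under 0.05 with DESeq2, as did that of tim. Pdp1 (log2 fold change 0.00, adjusted p = 0.98), cwo (log2 fold change -0.08, adjusted p = 0.17) and cyc (log2 fold change 0.07, adjusted p = 0.38) showed groups that overlapped throughout. On the second day alone, with 4 libraries, per and Clk had adjusted p of 0.0675 and 0.0685.

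**Figure D1:**
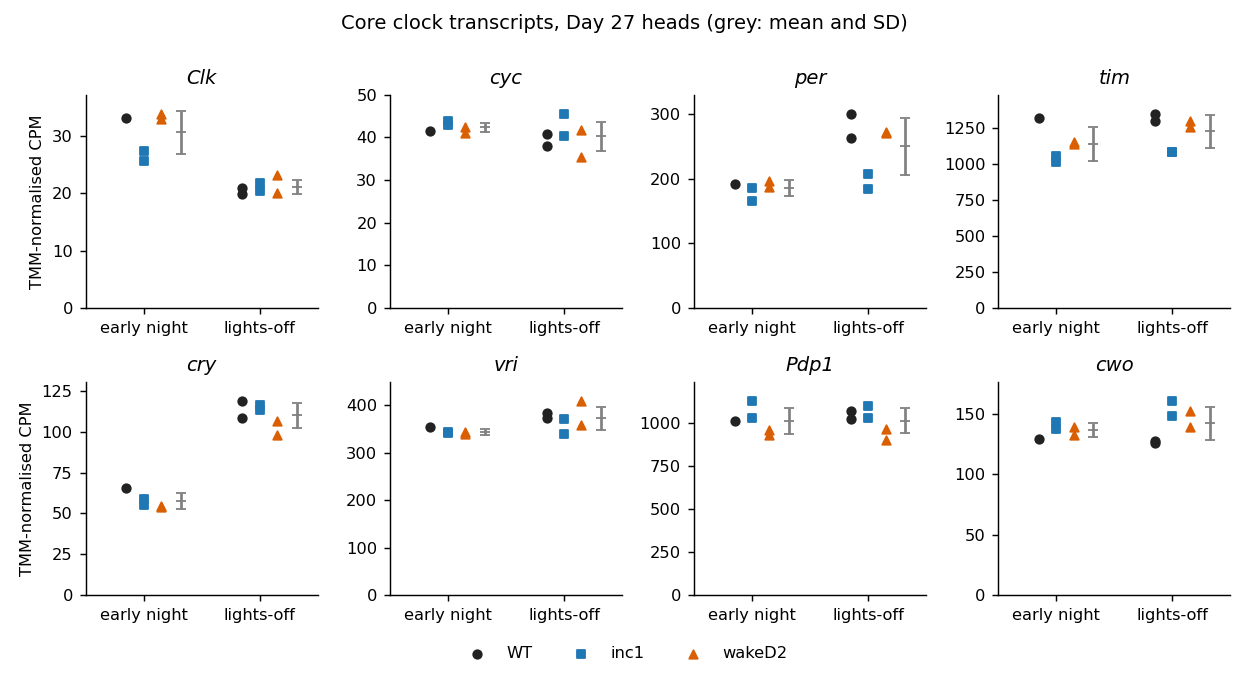
CPM of the 8 core clock genes in the 5 early-night and 6 lights-off libraries of Day 27, with points by genotype and the mean and SD in grey. cry and Clk separate the phases without overlap, while Pdp1, cyc and cwo do not.

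Among factors that act on clock proteins, 4 of 19 tested members rose and 2 fell, against 11.6% and 12.4% over all genes. Their median log2 fold change was 0.01, against -0.02 over all genes. Without the 4 libraries that held accessory gland RNA, 2 rose and 2 fell. Usp8, a deubiquitinase that acts on CLK, had 144 CPM in WT at ZT16, 101 and 102 CPM in inc1 and 126 and 117 CPM in wakeD2 at ZT16 and ZT40, against 291 and 244 CPM in WT, 179.8 and 165 CPM in inc1 and 225 and 245 CPM in wakeD2 at ZT12 and ZT36. Usp8 was lower in all 5 pairs with no overlap (log2 fold change -0.87 ± 0.06 SE, adjusted p = 6.7e-05). tws, a regulatory subunit of protein phosphatase PP2A, fell (log2 fold change -0.28, adjusted p = 0.003), while wdb, another subunit of PP2A, rose (log2 fold change 0.23, adjusted p = 0.0073). sgg, the fly GSK3 kinase (log2 fold change 0.23, adjusted p = 0.0016), Atx2, which promotes PER translation (log2 fold change 0.26, adjusted p = 0.0015), and CkIIbeta, a subunit of casein kinase II (log2 fold change 0.13, adjusted p = 0.024), rose. dco, the kinase known as doubletime, and slmb, the F-box protein that targets PER, had log2 fold changes of 0.01 and -0.01.

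Of genes known for rhythmic expression in heads, 3 of 19 tested members rose and 3 fell (median 0.01), against 11.6% and 12.4% over all genes. Without the 4 libraries that held accessory gland RNA, 4 rose and 3 fell. Achl (Achilles) had the largest fitted log2 fold change among the named genes of Day 27. It had 258 CPM in WT at ZT16, 145 and 154 CPM in inc1 and 257 and 247 CPM in wakeD2 at ZT16 and ZT40, against 17.9 and 13.4 CPM in WT, 14.3 and 13 CPM in inc1 and 26.7 and 29.8 CPM in wakeD2 at ZT12 and ZT36. Every early-night library exceeded every lights-off library (log2 fold change 3.49 ± 0.14 SE, adjusted p = 3.9e-06), and mean Achl was 219.6, 50.1, 5.73, 19.2, 212 and 369 CPM at hours 0, 4, 8, 12, 16 and 20. Pdf, the neuropeptide of the lateral clock neurons, averaged 64.1 ± 18.9 CPM in the early night and 85.2 ± 18.3 CPM at lights-off (SD, n = 5 and 6), with overlapping groups but a fall in all 5 pairs (log2 fold change -0.36, adjusted p = 0.0092). In the early night Pdf was lowest in inc1, with 42.8 and 51 CPM, against 92.1 CPM in WT. takeout (to), a feeding-related gene, had a log2 fold change of 0.24 (adjusted p = 0.039), but its call was lost under 15 alternatives, among them sampling day (0.053) or genotype by day (0.076) as a block.

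The 12 largest rises with all 5 pairs upward, among genes of at least 5 CPM, were led by Achl and CG34134. CG34134, a gene named only by its annotation number, at 2L 8190297 to 8190781 (Release 6 assembly), had 81.7 CPM in WT at ZT16, 72.1 and 75.3 CPM in inc1 and 102 and 95.9 CPM in wakeD2 at ZT16 and ZT40, against 10.6 and 10.5 CPM in WT, 10.7 and 12.9 CPM in inc1 and 9.43 and 11.5 CPM in wakeD2 at ZT12 and ZT36 (log2 fold change 2.94 ± 0.11 SE, adjusted p = 3.9e-06). All early-night values lay above all lights-off values. CG8419, at 2L 8206171 to 8209637 on the same arm, reached 32.1 to 48.8 CPM in the early night, against 13.2 to 14.6 CPM at lights-off (log2 fold change 1.55, adjusted p = 6.7e-05). CG14221 reached 10.4 to 17.1 CPM in the early night, against 2.95 to 5.14 CPM at lights-off (log2 fold change 1.68, adjusted p = 0.00022).

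Genes of the eye stood among these rises. Culd, which encodes a protein for uptake of rhodopsin and TRPL from the photoreceptor membrane, had 967 CPM in WT at ZT16, 486 and 577 CPM in inc1 and 822 and 797 CPM in wakeD2 at ZT16 and ZT40, against 306 and 268 CPM in WT, 268 and 296 CPM in inc1 and 304 and 347 CPM in wakeD2 at ZT12 and ZT36 (log2 fold change 1.28 ± 0.12 SE, adjusted p = 0.00028). The groups did not overlap. t (tan), the enzyme that frees histamine, the photoreceptor transmitter, from its stored conjugate, had 423 CPM in WT at ZT16, 226 and 240.1 CPM in inc1 and 329.8 and 317 CPM in wakeD2 at ZT16 and ZT40, against 179 and 161 CPM in WT, 136 and 139 CPM in inc1 and 156 and 182 CPM in wakeD2 at ZT12 and ZT36 (log2 fold change 0.97 ± 0.08 SE, adjusted p = 0.0002). Again no early-night library reached down to the lights-off range. The remaining rises were CG31036, CG4842, Nepl18 (a neprilysin-like peptidase), Myo28B1 (an unconventional myosin), CG14636 and CG5883, with log2 fold changes between 0.96 and 1.37. The groups overlapped for CG14636 and CG5883.

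**Figure D2:**
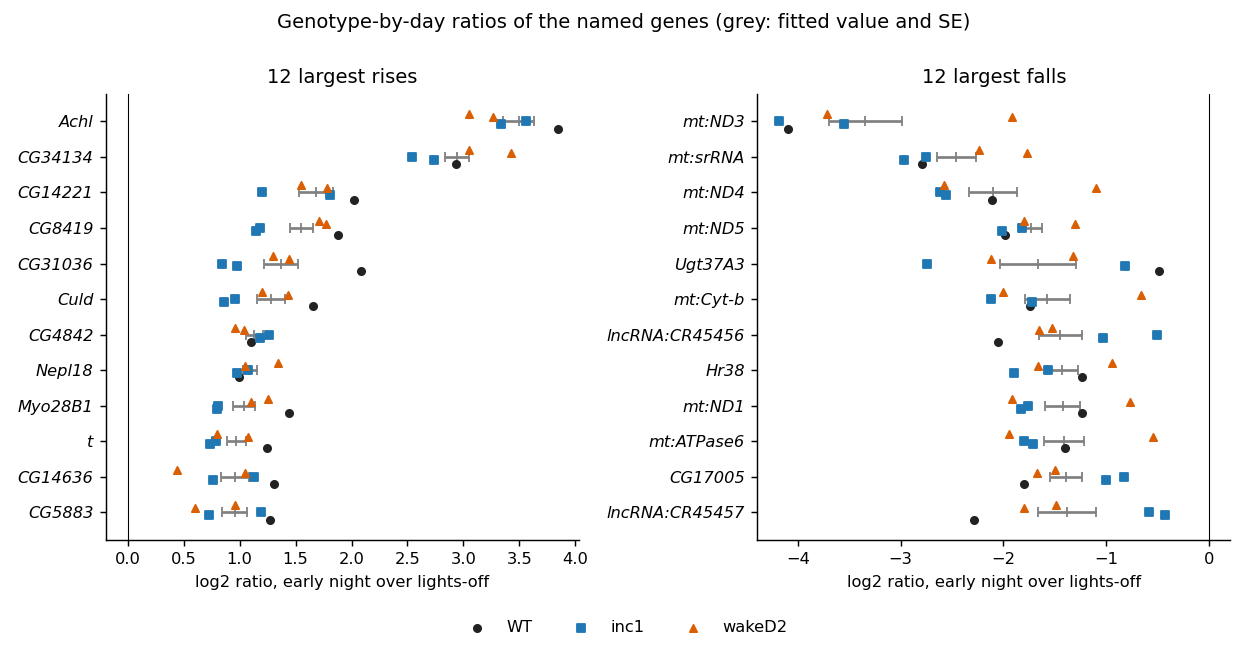
Log2 ratio of each early-night library to the lights-off library of its genotype and day, for the 12 largest rises and 12 largest falls, with the fitted log2 fold change and its SE in grey. All 5 ratios of each gene share a sign because the genes were chosen so, and Achl reaches 3.49 while mt:ND3 reaches -3.34 in the fit.

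The falls held activity- and light-regulated genes. Of this list, 0 of 12 tested members rose and 6 fell (median -0.25), against 11.6% and 12.4% over all genes. Without the 4 libraries that held accessory gland RNA, 6 fell. Hr38, the fly NR4A nuclear receptor and a marker of recent neuronal activity, had 18.6 CPM in WT at ZT16, 11.2 and 10.1 CPM in inc1 and 14.5 and 16.3 CPM in wakeD2 at ZT16 and ZT40, against 43.8 and 35.3 CPM in WT, 42 and 30.2 CPM in inc1 and 46 and 31.4 CPM in wakeD2 at ZT12 and ZT36. No early-night library reached the lights-off range (log2 fold change -1.43 ± 0.15 SE, adjusted p = 0.00047). CG14186 had 161 CPM in WT at ZT16, 86.1 and 94.4 CPM in inc1 and 121 and 113 CPM in wakeD2 at ZT16 and ZT40, against 257 and 276 CPM in WT, 197 and 200.1 CPM in inc1 and 245 and 257 CPM in wakeD2 at ZT12 and ZT36 (log2 fold change -1.02 ± 0.07 SE, adjusted p = 6.7e-05), also without overlap. sr (stripe), a relative of the Egr early response factors, averaged 18.7 ± 1.57 CPM in the early night and 28.4 ± 4.66 CPM at lights-off (SD, n = 5 and 6; log2 fold change -0.62, adjusted p = 0.0023). CG17778 (-0.42), CG8910 (-0.27) and meng, a kinase gene (-0.47), were the other members that fell on the log2 scale. kay and Jra, the fly Fos and Jun, had log2 fold changes of -0.01 (adjusted p = 0.87) and -0.13 (adjusted p = 0.075).

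A cluster of neighbours on 2L fell together. CG17005 (9327744 to 9330332), lncRNA:CR45456 (9325845 to 9326721) and lncRNA:CR45457 (9327039 to 9327553) lie on the plus strand without overlapping in the annotation. CG17005 had 17.4 CPM in WT at ZT16, 12.5 and 17.1 CPM in inc1 and 18.1 and 21.2 CPM in wakeD2 at ZT16 and ZT40, against 60.9 and 61.2 CPM in WT, 25.1 and 30.5 CPM in inc1 and 58.2 and 60.1 CPM in wakeD2 at ZT12 and ZT36 (log2 fold change -1.39 ± 0.16 SE, adjusted p = 0.00058). Within lights-off, inc1 was lower than WT and wakeD2 by a margin wider than the spread of its days. lncRNA:CR45456 reached 2.41 to 3.65 CPM in the early night, against 3.46 to 14.8 CPM at lights-off (log2 fold change -1.45, adjusted p = 0.0019) and lncRNA:CR45457 1.85 to 3.4 CPM in the early night, against 2.52 to 10.6 CPM at lights-off (log2 fold change -1.38, adjusted p = 0.0085). Both lncRNA groups overlapped, with inc1 again lowest at lights-off.

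Phototransduction genes changed in both directions. Of this list, 7 of 26 tested members rose and 2 fell (median 0.04), against 11.6% and 12.4% over all genes. Without the 4 libraries that held accessory gland RNA, 5 rose and 5 fell. trpl, a light-gated cation channel, had 2567 CPM in WT at ZT16, 1261 and 1431 CPM in inc1 and 2145 and 2125 CPM in wakeD2 at ZT16 and ZT40, against 4394 and 3428 CPM in WT, 2244 and 2297 CPM in inc1 and 3584 and 3953 CPM in wakeD2 at ZT12 and ZT36. Within each genotype, every early-night library was below every lights-off library (log2 fold change -0.74 ± 0.07 SE, adjusted p = 0.00032). Arr1, an arrestin, also fell (log2 fold change -0.28, adjusted p = 0.038). The genes that rose were ninaA, a chaperone of the main rhodopsin (log2 fold change 0.60, adjusted p = 0.00019), laza, a lipid phosphatase (log2 fold change 0.48, adjusted p = 0.0019), inaC, the eye protein kinase C (log2 fold change 0.30, adjusted p = 0.0093), inaD, the scaffold of the signalling complex (log2 fold change 0.85, adjusted p = 0.012), Gbeta76C (log2 fold change 0.40, adjusted p = 0.021), Ggamma30A (log2 fold change 0.17, adjusted p = 0.048) and ninaC, a myosin kinase (log2 fold change 0.27, adjusted p = 0.041). ninaA had 178 CPM in WT at ZT16, 96 and 106 CPM in inc1 and 138 and 133 CPM in wakeD2 at ZT16 and ZT40, against 135 and 119 CPM in WT, 63.7 and 65.6 CPM in inc1 and 81.9 and 91.6 CPM in wakeD2 at ZT12 and ZT36. WT was highest in both phases, and each pair rose while the pooled groups overlapped.

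The rhodopsins ninaE (0.02), Rh3 (0.13), Rh4 (-0.07), Rh5 (-0.12) and Rh6 (-0.22), and the channel trp (0.10), did not pass the test on the log2 scale. Among 8 genes of visual chromophore metabolism, 2 rose and 1 fell, against 11.6% and 12.4% over all genes. These counts were the same without the 4 libraries. Pdh, a retinol dehydrogenase of pigment cells, averaged 189.8 ± 70.3 CPM in the early night and 145 ± 50.8 CPM at lights-off (SD, n = 5 and 6; log2 fold change 0.52, adjusted p = 0.00044). pinta, a retinoid-binding protein, averaged 67.3 ± 5.06 CPM in the early night and 49 ± 6.9 CPM at lights-off (SD; log2 fold change 0.47, adjusted p = 0.00059). Rdh1, another retinol dehydrogenase, averaged 20.8 ± 2.41 CPM in the early night and 33.4 ± 6.86 CPM at lights-off (SD; log2 fold change -0.65, adjusted p = 0.0047), where WT at ZT36 was the highest library with 47.2 CPM.

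The same interval after lights-on gave a point of comparison. The 5 morning libraries (WT at ZT4, inc1 and wakeD2 at ZT4 and ZT28) were set against the 6 lights-on libraries at ZT0 and ZT24, which share no library with the early-night comparison. Here 1222 genes rose (12.3%) and 1212 fell (12.2%). Accessory gland RNA was present in 4 of the 5 morning and 3 of the 6 lights-on libraries. Without these 7 libraries, which left inc1 at ZT28 as the lone morning library, 291 rose and 451 fell. Of the genes that rose in the early night, 150 fell and 342 rose in the morning, and of those that fell in the early night, 118 rose and 403 fell. In a joint fit of the 22 libraries, the early-night change exceeded the morning change for 731 genes (7.33%) and was below it for 733 (7.35%). These shares, and the 12.3% and 12.2% of the morning, are the reference for the list counts given below. In the 11 of these libraries that held no accessory gland RNA, the counts were 178 above and 182 below.

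Several named genes of light, activity, vision and the clock took opposite directions in the 2 intervals. Hr38 rose in the morning by 1.58 on the log2 scale (difference of the changes -3.06 ± 0.23 SE, adjusted p = 2.8e-08). CG14186 rose by 0.65, trpl by 0.86, Usp8 by 1.01, CG17005 by 2.53 and per by 0.94. In the other direction, morning log2 fold changes were -2.16 for Achl, -2.43 for CG34134, -0.76 for Culd, -0.67 for t and -0.47 for ninaA. They were picked for early-night calls and opposite morning directions, and the difference reuses those libraries. A pass is therefore not separate evidence of a change. All of these genes passed the test of the difference, with adjusted p from 9.5e-14 for CG34134 to 1.1e-06 for ninaA. In the 11 libraries without accessory gland RNA they passed it too, with 0.013 for ninaA as the highest. Of the activity- and light-regulated list, 8 rose and 1 fell in the morning, and the early-night change was below the morning change for 9 of 12 members, kay and Jra among them, and for 7 in those 11 libraries.

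Heat shock proteins and their co-chaperones are molecular chaperones induced by stress. The list also held Hsf, the heat shock factor gene, which does not encode a chaperone. Of 17 tested members, 1 fell in the early night and none rose, against 12.4% and 11.6% over all genes. The member that fell was Hsf (log2 fold change -0.10, adjusted p = 0.034). Without the 4 libraries, and also with genotype by day as a block, the Hsf call was lost and 1 member rose. In the morning 9 rose and 0 fell, or 6 and 0 without the 7 libraries. stv had log2 fold changes of 0.07 in the early night and 0.58 in the morning (difference -0.51 ± 0.04 SE, adjusted p = 2.5e-07). The difference passed the test for 8 members, all with the early-night change below that of the morning, and for 4 in the 11 libraries without accessory gland RNA.

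**Figure D3:**
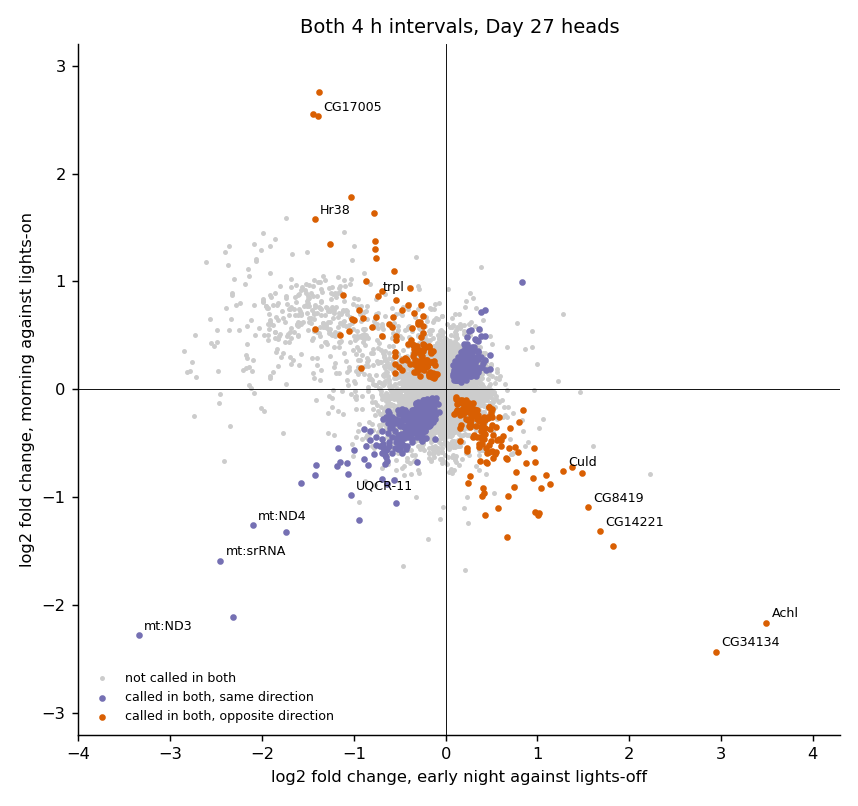
Log2 fold change of 9969 genes from lights-off to the early night (x axis) against that from lights-on to the morning (y axis). 745 genes called in both intervals share a direction (purple) and 268 have opposite directions (orange). Achl and CG34134 lie at lower right and mitochondrial transcripts at lower left.

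Transcripts of the mitochondrial genome fell in both intervals. This list was chosen after its values were seen. Of 13 transcripts, 11 fell and 1 rose in the early night (median -1.41), and 11 fell in the morning (median -0.70). Without the 4 libraries that held accessory gland RNA, 11 fell and 2 rose in the early night. mt:lrRNA, the large ribosomal RNA, had 11938 CPM in WT at ZT16, 12299 and 11697 CPM in inc1 and 16830.3 and 11708 CPM in wakeD2 at ZT16 and ZT40, against 25225 and 22835 CPM in WT, 30982 and 27192 CPM in inc1 and 29289.5 and 32403 CPM in wakeD2 at ZT12 and ZT36 (log2 fold change -1.15 ± 0.10 SE, adjusted p = 0.0002). mt:ND3, a complex I subunit, had 9.58 CPM in WT at ZT16, 12.2 and 6.93 CPM in inc1 and 30.4 and 9.96 CPM in wakeD2 at ZT16 and ZT40, against 165 and 116 CPM in WT, 143 and 127 CPM in inc1 and 115 and 132 CPM in wakeD2 at ZT12 and ZT36 (log2 fold change -3.34 ± 0.36 SE, adjusted p = 0.00045). wakeD2 at ZT16 was the highest early-night library for both, yet below every lights-off library. mt:CoI, a cytochrome c oxidase subunit, averaged 5018 ± 1099 CPM in the early night and 9926 ± 605 CPM at lights-off (SD, n = 5 and 6; log2 fold change -1.0, adjusted p = 0.00077). mt:ND6 was the member that rose (log2 fold change 1.0, adjusted p = 0.02, 0.052 with genotype by day as a block), and mt:ND2 had 0.32 (adjusted p = 0.21).

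Counts on the mitochondrial genome made up 2.5% ± 0.495 of a library in the early night and 5.29% ± 0.335 at lights-off (SD, n = 5 and 6). The early-night libraries held 2.1% to 3.36% and the lights-off libraries 4.96% to 5.9%. At the other hours the Day 27 means were 5.42% at hour 0, 3.6% at hour 4, 3.92% at hour 8 and 3.36% at hour 20. The means were thus higher at hours 0 and 12 than at the other hours, but single libraries reached 5.17% at hour 8 and 5.26% at hour 20, within the range of hours 0 and 12. The labels name no batch. For mt:ND5, the early-night and morning changes differed by -0.44 ± 0.23 SE on the log2 scale (adjusted p = 0.24), and 1 of the 13 transcripts, mt:CoII, passed this test, with an adjusted p of 0.18 in the 11 libraries without accessory gland RNA. Leaving the mitochondrial genome out of the counts gave 2353 called genes in all.

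**Figure D4:**
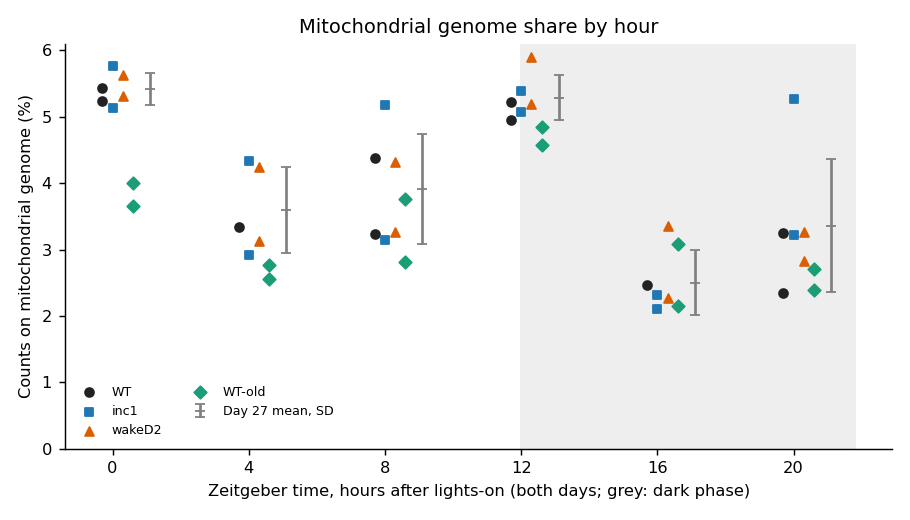
Percent of counted reads on the mitochondrial genome in each of the 46 libraries by hour of the cycle, with both days plotted at one hour and the Day 27 mean and SD in grey. The Day 27 mean is 2.5% at hour 16, against 5.29% at hour 12.

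Nuclear genes of respiration and the cytosolic ribosome included members that fell in both intervals. Of nuclear oxidative phosphorylation genes, 7 of 66 tested members rose and 20 fell (median -0.05), against 11.6% and 12.4% over all genes. Without the 4 libraries that held accessory gland RNA, 1 rose and 13 fell. In the morning 1 rose and 33 fell. UQCR-11, a complex III subunit, had 41.5 CPM in WT at ZT16, 35.4 and 37.3 CPM in inc1 and 35.5 and 41.2 CPM in wakeD2 at ZT16 and ZT40, against 74.6 and 76.1 CPM in WT, 84.7 and 76.8 CPM in inc1 and 70.9 and 86.3 CPM in wakeD2 at ZT12 and ZT36 (log2 fold change -1.04 ± 0.07 SE, adjusted p = 7.1e-05), with no overlap. It fell by 0.98 in the morning, and the changes differed by -0.06 ± 0.08 SE. COX7C had -0.46 in the early night and -0.45 in the morning. Of cytosolic ribosomal proteins, 7 of 77 tested members rose and 22 fell (median -0.04), and 1 rose and 21 fell without the 4 libraries that held accessory gland RNA. RpL38 averaged 309 ± 23 CPM in the early night and 483 ± 58.7 CPM at lights-off (SD, n = 5 and 6; log2 fold change -0.66, adjusted p = 0.00024), and its morning change was -0.61 on the log2 scale. Among mitochondrial ribosomal proteins, 3 of 70 tested members rose and 9 fell (2 and 4 without the 4 libraries).

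Changes went with transcript length. Of 1575 genes whose longest annotated transcript was under 1 kb, 20.9% fell and 4.51% rose, while of 1880 genes of 4 kb and over, 6.6% fell and 21.3% rose. The median log2 fold changes of these classes were -0.13 and 0.05 in the early night, and -0.06 and 0.02 in the morning. Many ribosomal and respiratory chain transcripts are short, and the part of length in their values was not tested. On chromosome 4, 32 of 88 genes fell (36.4%) and 5 rose (5.68%), against 12.4% that fell and 11.6% that rose over all genes.

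Every gene of sugar use that passed the test fell. Of carbohydrate metabolism genes, none of 28 tested members rose and 17 fell (median -0.19), and 12 fell without the 4 libraries that held accessory gland RNA. Pgk, phosphoglycerate kinase of glycolysis, had 182 CPM in WT at ZT16, 206 and 202 CPM in inc1 and 167 and 166 CPM in wakeD2 at ZT16 and ZT40, against 243 and 224 CPM in WT, 269.8 and 285 CPM in inc1 and 254 and 245 CPM in wakeD2 at ZT12 and ZT36 (log2 fold change -0.47 ± 0.04 SE, adjusted p = 0.00021). The phases did not overlap. Tpi (-0.41), Gapdh1 (-0.28), Pfk (-0.23), Eno (-0.16) and PyK (-0.15) of the same pathway fell on the log2 scale. So did UGP, which makes UDP-glucose (log2 fold change -0.63, adjusted p = 0.00022), Zw (-0.31) and Pgd (-0.50), the dehydrogenases of the pentose phosphate pathway, and tobi, a glucosidase gene that responds to feeding (-1.15). In the morning 3 rose and 5 fell, and the early-night change was below that of the morning for 8 members, or 2 in the 11 libraries without accessory gland RNA. The head fat body is a store of sugar and fat. Of 10 of its markers tested, 1 rose and 3 fell (median -0.17), against 11.6% that rose and 12.4% that fell over all genes. These 2 counts were the same without the 4 libraries. The marker that rose was to, a call lost under 15 of 25 alternatives, and the calls of fit and Lsp2 were lost under 6 and 2. Lsp2, a storage protein, had 339 to 3149 CPM in the early night, against 513 to 4816 CPM at lights-off (log2 fold change -0.91, adjusted p = 0.012), and fit (-0.61) and Obp99a (-0.46) also fell on the log2 scale. No marker was at 0, and the part of fat body RNA in the values of sugar, lipid and glutathione S-transferase genes was not tested.

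In fat storage and lipid synthesis, 5 of 27 tested members rose and 9 fell (median -0.11), against 11.6% and 12.4% over all genes. Without the 4 libraries that held accessory gland RNA, 2 rose and 7 fell. Enzymes of successive steps of fatty acid synthesis fell, with AcCoAS, which makes acetyl-CoA (-0.47), ACC, acetyl-CoA carboxylase (-0.45), FASN1, fatty acid synthase (-0.47) and Desat1, the desaturase (-0.56), on the log2 scale. SREBP, the factor that controls lipid synthesis genes, fell (-0.27) while SCAP, its escort protein, rose (0.24). Desat1 averaged 2979 ± 426 CPM in the early night and 4286 ± 659.8 CPM at lights-off (SD, n = 5 and 6; log2 fold change -0.56, adjusted p = 0.0015).

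Among detoxification genes, the glutathione S-transferases held more falls than rises, against 11.6% that rose and 12.4% that fell over all genes. Of glutathione S-transferases, 1 of 31 tested members rose and 12 fell (median -0.19), and 1 rose and 9 fell without the 4 libraries that held accessory gland RNA. GstE9 averaged 75.8 ± 6.47 CPM in the early night and 113 ± 11.6 CPM at lights-off (SD, n = 5 and 6; log2 fold change -0.59, adjusted p = 0.00034), and 6 further members of the E cluster were lower, GstE3, GstE5, GstE6, GstE7, GstE8 and GstE11, by 0.26 to 0.60 on the log2 scale. Members of this cluster resemble each other in sequence, and how the counting treated reads shared between them is not given in the sources used here. The member that rose was se (sepia), an enzyme of eye pigment synthesis (log2 fold change 0.44, adjusted p = 0.0006). Of cytochrome P450 genes, 3 of 65 tested members rose and 7 fell (1 and 8 without the 4 libraries). Among UDP-glycosyltransferases, 4 of 19 tested members rose and 3 fell (4 and 1 without the 4 libraries). The smallest p of this list belonged to Ugt36D1, with 30.2 to 33.4 CPM in the early night, against 15 to 23.9 CPM at lights-off (log2 fold change 0.70, adjusted p = 0.00046). Ugt37A3 was among the 12 largest falls (log2 fold change -1.66 ± 0.37 SE, adjusted p = 0.012), but its values ranged widely, with 2.07 to 11.8 CPM in the early night, against 5.31 to 31.4 CPM at lights-off.

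Neuropeptide transcripts fell in 8 and rose in 1 of 28 tested members (median -0.12), against 12.4% and 11.6% over all genes. Without the 4 libraries that held accessory gland RNA, 1 rose and 5 fell. Capa had 94.2 CPM in WT at ZT16, 122 and 134 CPM in inc1 and 87.9 and 85.1 CPM in wakeD2 at ZT16 and ZT40, against 136 and 141 CPM in WT, 171 and 183 CPM in inc1 and 121 and 147 CPM in wakeD2 at ZT12 and ZT36 (log2 fold change -0.55 ± 0.06 SE, adjusted p = 0.0004). Each pair fell, although inc1 was higher than the other groups in both phases. Ilp2 (-0.28) and Ilp5 (-0.29), insulin-like peptides of the brain, NPF (-0.21), Ms (-0.25), FMRFa (-0.31) and Nplp1 (-0.23) fell on the log2 scale, and Nplp3 rose (0.42).

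Of sleep regulators, 6 of 27 tested members rose and 3 fell (median -0.02), against 11.6% and 12.4% over all genes. Without the 4 libraries that held accessory gland RNA, 2 rose and 3 fell. Octbeta2R, an octopamine receptor, averaged 44.4 ± 2.49 CPM in the early night and 62.2 ± 4.6 CPM at lights-off (SD, n = 5 and 6; log2 fold change -0.49, adjusted p = 0.00068), without overlap. mGluR, a metabotropic glutamate receptor (-0.46), and AstA-R1, an allatostatin receptor (-0.64), fell on the log2 scale. homer, a synaptic scaffold (0.28), Sh, a potassium channel (0.25), its regulator qvr, also called sleepless (0.23), SIFaR (0.19) and the chloride channel ClC-a (0.27, adjusted p = 0.055 with genotype by day as a block) rose. inc itself had 0.18 (adjusted p = 0.031), a call lost under 12 of 25 alternatives, among them the fit without the 4 libraries (0.24), the first day alone (0.0595) and 6 fits without a single library (0.0605 to 0.103).

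Among the other lists, Cnx99A, the calnexin chaperone of the endoplasmic reticulum, averaged 494 ± 86.6 CPM in the early night and 351 ± 53.9 CPM at lights-off (SD, n = 5 and 6; log2 fold change 0.53, adjusted p = 0.00066), where 2 of 14 tested members rose and 1 fell (1 and 2 without the 4 libraries). Of proteasome subunits, 2 of 31 tested members rose and 8 fell (1 and 5 without the 4 libraries), with Prosalpha5 at -0.42. None of 16 antimicrobial peptide genes passed the test (median -0.19), although without the 4 libraries 2 rose and 2 fell. Of genes of feeding and nutrient signals, 3 of 18 tested members rose and 3 fell (1 and 2 without the 4 libraries). Of immune and stress kinases and their regulators, 3 of 14 tested members rose and 2 fell (0 and 1 without the 4 libraries). Of odorant binding proteins, 5 of 27 tested members rose and 6 fell (6 and 7 without the 4 libraries), and of Cpr cuticle proteins, 0 of 19 tested members rose and 3 fell (0 and 3 without the 4 libraries). For head tissues, 2 of 7 neuronal, 1 of 5 photoreceptor and 2 of 7 glial markers rose, 1 glial marker fell and 2 of 6 muscle markers fell. Without the 4 libraries, 1 neuronal and 1 muscle marker rose, and no other marker of these tissues passed the test. For all lists of this paragraph, the shares over all genes were 11.6% that rose and 12.4% that fell.

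**Figure D5:**
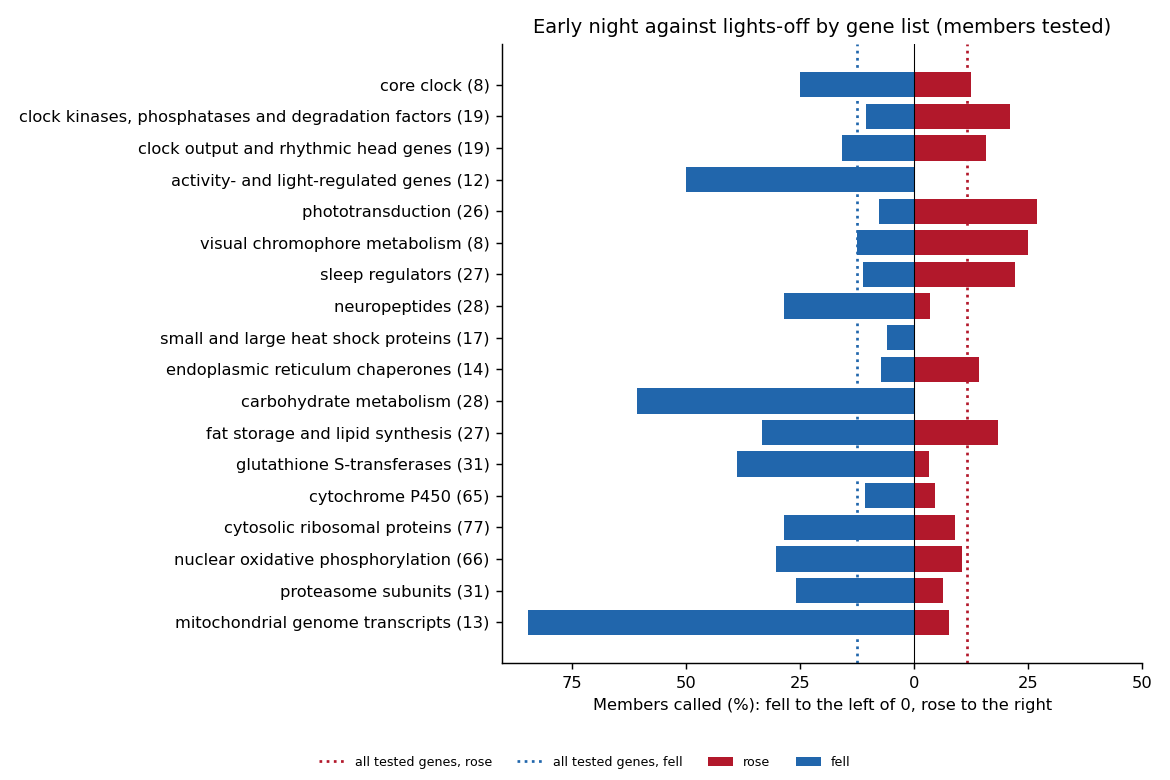
Share of the tested members of each gene list that rose (right of 0) or fell (left of 0) in the early night, with the number tested in brackets and the shares over all 9969 genes as dotted lines at 11.6% and 12.4%. Carbohydrate metabolism, activity- and light-regulated genes and mitochondrial transcripts extend furthest to the left.

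The change did not differ detectably between WT, inc1 and wakeD2. No gene of 9969 (0.0%) passed the test of a difference between genotypes by edgeR, 295 had an unadjusted p under 0.05, and DESeq2 called 25 of the 6103 genes to which it gave an adjusted p. WT had only its ZT16 library in the early night, so the lack of calls does not show that the genotypes changed alike. From time-series tests over the full cycle, the paper reported lower oscillation amplitudes of per, tim and cry in inc1, and of cry in wakeD2. The smallest p belonged to Exn, CG31036 and ClC-a (adjusted p = 0.88 each). CG31036 had 55.6 CPM in WT at ZT16, 36 and 37.4 CPM in inc1 and 39.5 and 39.6 CPM in wakeD2 at ZT16 and ZT40, against 13 and 14.6 CPM in WT, 18.2 and 20.8 CPM in inc1 and 14.5 and 16.1 CPM in wakeD2 at ZT12 and ZT36. The change in inc1 minus that in WT was -1.10 on the log2 scale, and that in wakeD2 minus WT was -0.64. Exn differed by -0.69 and -0.37 and ClC-a by -0.48 and -0.23 in inc1 and wakeD2 relative to WT.

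WT-old flies, WT of Day 49, were sampled at the same hours, with 2 early-night and 2 lights-off libraries. In a fit of all WT-old libraries by hour of day, 100 genes rose (1.0%) and 147 fell (1.47%) from lights-off to the early night. The 20 accessory gland markers summed to 0.986 and 1.08 CPM in their early night and 0.828 and 0.927 CPM at their lights-off. The 22 midgut markers summed to 207 and 205 CPM in their early night and 185 and 240 CPM at their lights-off. In the Day 27 libraries of both phases without accessory gland RNA, these midgut sums were 45.8 to 62.8 CPM. The part of midgut RNA in the WT-old values was not tested. The count of calls rested on each library (the lone library left was taken to vary like the other groups), with 41 without the early-night library of ZT16, 55 without that of ZT40, 50 without the lights-off library of ZT12 and 75 without that of ZT36. Of the 247 genes called, 206 (83.4%) were called in the same direction on Day 27, or 8.63% of the 2388 genes called there, and 0 in the opposite direction. Achl had a log2 fold change of 5.14 in WT-old (adjusted p = 9.9e-09), Culd 1.60 (adjusted p = 2.4e-06), cry -0.66 (adjusted p = 0.0091) and Clk 0.60 (adjusted p = 0.025).

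The change differed between Day 49 and Day 27 for 4 genes (0.0401%), the yolk protein genes Yp1, Yp2 and Yp3 and Obp99a. Yolk proteins are made by females. Yp1 had 27.8 and 21.4 CPM in the WT-old early night, against 2799 and 2013 CPM at WT-old lights-off, where Day 27 heads had 23571 to 36852 CPM in the early night, against 16785 to 39772 CPM at lights-off. lncRNA:roX1, a male-specific RNA chosen after its values were seen, had 1334 and 1315 CPM in the WT-old early night and 1244 and 1259.8 CPM at WT-old lights-off, and 575 to 841 CPM in the early night, against 495 to 746 CPM at lights-off on Day 27. Yolk protein levels thus differed between WT-old and Day 27 libraries, and between phases in WT-old. The share of each sex in a pool is not given, so it cannot be told apart here from age, or from phase in WT-old. On Day 27, Yp1, Yp2 and Yp3 did not pass the test of phase (log2 fold changes 0.23, 0.22 and 0.06). roX1 levels moved with age in these libraries. The part of yolk protein and roX1 levels in the other WT-old values was not tested.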

How the data were processed

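RNA-seq reads of pooled heads were mapped by the authors with STAR 2.4.2a to Release 6.13 and counted per gene with featureCounts, whose version and strand setting are not given in the sources used here. The deposited values are raw counts of 17490 genes in 46 libraries, in whole reads. Of the identifiers, 17288 matched the annotation. Total counts of the 11 libraries were 20037165 to 26099449, where 3 counts in a library are about 0.1 CPM, and such limits cover counting error only. No column was left unmapped, and no pair of libraries agreed within sampling noise.

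After removal of genes that stayed below 1 CPM in over 28 libraries, 9969 were tested. TMM scaling was computed over the 46 libraries. Phases were compared with the quasi-likelihood test of edgeR 4.0.16 (R 4.3.3), genotype as covariate, Benjamini-Hochberg adjusted at 0.05; SE is the log2 fold change over the root of F, and printed CPM carry the TMM factors. Differences between genotypes and ages were interaction terms. WT-old changes came from a fit of all WT-old libraries with hour of day as a factor, so the other hours added to the estimate of spread. The difference between Day 49 and Day 27 came from a joint fit of 15 libraries. DESeq2 1.42.0 was an alternative. In counts simulated for the early-night comparison over 9969 genes, the test called 33 of 40 genes raised and 33 of 40 lowered by 1 on the log2 scale, 24 of 40 raised and 28 of 40 lowered by 0.5, 37 of 40 lowered by 2, and 17 of 9769 unchanged genes. The comparison of morning with lights-on, its alternatives, and the fit without the mitochondrial genome, were added after seeing the data.

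Named genes were all core clock genes, the 12 largest rises and falls with all 5 pairs alike and at least 5 CPM, the 3 smallest p of each interaction and up to 4 smallest p per list; others were chosen after their values were seen, as were the mitochondrial transcripts. The members, 34 lists and tests were chosen with earlier results of these data known. Libraries of a genotype share a sampling day, read from the ZT label, and deviations of same-day libraries correlated across genes at -0.04 in inc1 and 0.39 in wakeD2, so fits with day as a block were run. Alternatives covered normalisation, test, filter, libraries, block and marker covariate. Promoter sequences were not used here.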

Additional observations from a re-analysis of the deposited data

Results flagged for a closer look

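Dixon's test was applied to the early-night and lights-off values of genes named in the text, in 182 groups. It set apart 6 values, a smaller share than the 1 in 20 groups that chance marks. Each group pooled the genotypes, and WT at ZT16 was the only early-night library of WT. A stray library and a genotype difference cannot be told apart there. vri in WT at ZT16 was 355 CPM, with the other early-night libraries at 338.8 to 343.0 CPM. CG31036 in WT at ZT16 was 55.6 CPM, with the others at 36.0 to 39.6 CPM. Prosalpha5 in wakeD2 at ZT12 was 71.0 CPM, with the other lights-off libraries at 55.3 to 59.4 CPM, and Rdh1 in WT at ZT36 was 47.2 CPM, with the others at 28.8 to 32.3 CPM. Both of these libraries held accessory gland RNA. COX7C in inc1 at ZT16 was 147 CPM, with the others at 129.6 to 133.0 CPM. mt:lrRNA in wakeD2 at ZT16 was 16830.3 CPM, with the others at 11697 to 12299 CPM.

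The early-night change differed between WT-old and Day 27 for Yp1 by -6.84 ± 0.26 SE on the log2 scale, for Yp2 by -6.77, for Yp3 by -4.43 and for Obp99a by -6.16, with adjusted p of 1.1e-07, 1.1e-07, 1.6e-07 and 5.5e-05 in that order. In both pairs of WT-old these genes were lower in the early night.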

How the results depend on the processing

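The count of 2388 genes changed in the early night fell to 1467 in inc1 and wakeD2 only (1386 of them shared), 1101 on the first sampling day only (819 shared), 915 on the second day only (588 shared) and 1353 without the libraries with accessory gland markers (1195 shared), fits with fewer libraries. Leaving out each library gave 1619 to 2361. Sampling day as a replicate block gave 2394 and genotype by sampling day as a replicate block 2335 calls. Without a filter on low counts, 1046 rose and 594 fell, and 485 rose and 430 fell on the second day only. The genotype difference called 0 genes under edgeR in every fit run, each leave-one-out included, and 25 by the DESeq2 likelihood ratio test. The fit without the WT early-night library was not run for it, since WT then has no early night. WT-old counts were 247, 556 in the 4 WT-old libraries alone, 355 with the day block and 41 to 75 with each library left out. The Day 49 difference counted 4 genes, 4 to 7 with each library left out (7 without WT-old lights-off of ZT36) and 6 with the day block. The morning count of 2434 was 742 (565 shared) without the libraries with accessory gland markers and 1624 to 2300 with each of 11 libraries left out. The difference from the morning counted 1464 genes, 360 (330 shared) without the libraries with accessory gland markers and 1239 to 1523 with each of 22 libraries left out.

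Of the 91 genes followed through the alternatives, 58 kept their direction and side of 0.05 under the alternatives run on them. Other genes named in the text, such as wdb, Arr1, ninaC and Ggamma30A, were not among the 91. Of 2262 values, 2172 were alike in both, 69 lost and 11 gained the call and 10 changed sign. The sign changes were in genes that did not pass the test. Pdp1 had -0.013 over all 34 Day 27 libraries, -0.0271 on the second day only, -1.7e-05 with sampling day as a replicate block and -0.0202 to 0.0196 in the fits without 1 library. cyc had -0.0372 and lncRNA:roX1 -0.0634 on the second day only. The cause of these moves was not tested.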
